A study of Mus musculus with 8 samples.

Results

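The translation initiation and elongation factors are the proteins that load ribosomes onto an mRNA, find the start codon and carry the ribosome along the message. Here they are 55 genes among 13681 genes tested, taken by name from the deposited gene table: every entry whose symbol begins with Eif1 to Eif6, Eef1 or Eef2 and whose mean over all 8 libraries was at least 1 TPM (a level scaled by transcript length and by the library's sum). The eIF2 kinases, the argonautes once named Eif2c, and Eif4enif1, Eef2k and Eef2kmt were left out by the same rule. Of 56 entries with a matching name, Eif4e1b was at 0 TPM in every library and was not a member. The level minimum used the mean over all groups and no comparison between them. By role, as grouped here from their symbols, there were 7 genes of start-site scanning and subunit joining, 6 of eIF2 and other carriers of the initiator tRNA, 5 of eIF2B, 13 of eIF3, 11 of eIF4, 3 eIF4E-binding inhibitors, 2 of eIF5A, Eif6, 6 of eEF1 and Eef2. A symbol does not establish the role of every gene in a group.

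The libraries came from primary mouse hippocampal neurons, taken from E19 embryos and given, between days 13 and 15 of culture, a lentivirus carrying either a scrambled hairpin (control) or a hairpin against CNOT7, a deadenylase of the CCR4-NOT complex. Harvest followed between days 17 and 19, and poly(A) RNA captured on poly(U) agarose was released at 75 °C as the total fraction. Long tails were released in the same way after washing at 50 °C, a step described as removing tails under 50 nucleotides. The 4 groups of 2 libraries each were scrambled total, knockdown total, scrambled long tails and knockdown long tails. All groups carried a lentiviral hairpin, no uninfected culture was analysed here, and the labels name no mouse strain. They do not state that replicate libraries are from different cultures, so p-values measure only the spread between these libraries, which may be technical.

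Initiation begins with eIF2, which carries the initiator tRNA to the small ribosomal subunit and is recharged with GTP by eIF2B. eIF3 and the eIF1 proteins hold that complex open for scanning, and the eIF4 group binds the cap of the mRNA through eIF4E, joins it to the ribosome through the eIF4G scaffold and unwinds it with the helicase eIF4A. During elongation eEF1A delivers each aminoacyl-tRNA and eEF2 moves the ribosome on. In neurons this machinery also works in dendrites, where local translation of stored mRNAs is tied to changes in their poly(A) tails.

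Cnot7 was at 42 and 36 TPM in scrambled total, 12 and 16 in knockdown total, 28 and 31 in scrambled long-tail and 9 and 11 in knockdown long-tail libraries. Marker sums overlapped between scrambled and knockdown total libraries for excitatory neurons (10 genes, 3245 to 4272 against 3051 to 4155 TPM), inhibitory neurons (10 genes, 1338 to 1536 against 1230 to 1540 TPM), astrocytes (10 genes, 4742 to 6019 against 3854 to 5903 TPM) and endothelial and mural cells (234 to 313 against 213 to 292 TPM, 3 of 10 genes at 0 in every library). They did not overlap for the oligodendrocyte lineage (10 genes, 1826 to 1981 against 1244 to 1255 TPM in total, 1585 to 1988 against 1067 to 1355 TPM in long tails). In long tails the excitatory sums did not overlap either (3019 to 3398 against 3414 to 3666 TPM), while those of inhibitory neurons (1533 to 1725 against 1482 to 2071 TPM), astrocytes (4101 to 4679 against 3259 to 4546 TPM) and endothelial and mural cells (203 to 295 against 179 to 342 TPM) did. Sums rest on the most abundant markers. Gene by gene, 9 astrocyte markers were lower and 1 higher after knockdown in total RNA (median log2 difference -0.23, all genes -0.07). In long tails 8 were lower and 2 higher (median -0.29, all genes -0.10). Of the excitatory markers, 5 were higher and 4 lower in long tails, with a median of 0. Microglial markers summed to at most 14 TPM, with 4 of 10 at 0 in every library, among them Aif1, Cx3cr1 and Tmem119. The ribosomal RNA precursor Rn45s took 2.898% to 18.56% of TPM, and knockdown long-tail library 2, where it was lowest, stood apart on the main axis of variation (position 56.6, with the other 7 libraries between -30.2 and 15.8). TPM rescaled without Rn45s served as an alternative setting. Beyond that, the part of Rn45s in the results below was not tested, nor was that of cell mixture. In such bulk samples fewer cells of a type and less RNA per cell cannot be told apart.

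The factors were a well-expressed group whose levels spanned from 3.88 TPM (Eif4ebp3) to 3897 TPM (Eef1a1) as means over the 8 libraries. A single gene had a mean under 10 TPM, 29 lay from 10 to under 100, 21 from 100 to under 500 and 4 at 500 TPM or more. The elongation factor Eef1a1 alone supplied 32.7% of the summed mean, and Eef1a1, Eef2, Eif5a, Eef1a2 and Eif1 together 55.3%. Summed over all members the level was 12214 and 12556 TPM in scrambled total, 13532 and 11622 in knockdown total, 10236 and 11794 in scrambled long-tail and 10641 and 12713 in knockdown long-tail libraries. The knockdown and scrambled ranges overlapped in each fraction. As a share of TPM without Rn45s the members took 1.237% to 1.441% of every library.

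Within complexes the mRNAs were unequal in level. For eIF2, the alpha subunit Eif2s1, the one phosphorylated under stress, had a mean of 32.9 TPM, the beta subunit Eif2s2 85.3 TPM and the gamma subunit Eif2s3x 140 TPM. The 5 subunits of its exchange factor eIF2B ranged from 18.8 TPM (Eif2b3) to 55.1 TPM (Eif2b2). Among the 13 eIF3 subunits the range was 56.6 TPM (Eif3j1) to 257 TPM (Eif3h), with the large scaffold subunit Eif3a at 83.0 TPM. In the cap-binding group the helicase Eif4a1 was at 374 TPM, its paralog Eif4a2 at 255 TPM, the scaffolds Eif4g2, Eif4g1 and Eif4g3 at 238, 164 and 92.5 TPM and the cap-binding protein Eif4e at 76.0 TPM. The inhibitors that compete with eIF4G for eIF4E were at 44.3 TPM (Eif4ebp1), 54.9 TPM (Eif4ebp2) and 3.88 TPM (Eif4ebp3). The mean gap between the 2 libraries of a group, on the log2(TPM + 1) scale, had a median of 0.228 over members. It was largest for Eif3j1 (0.609) and Eif3a (0.53) and smallest for Eif4g1 (0.086).

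**Figure D1:**
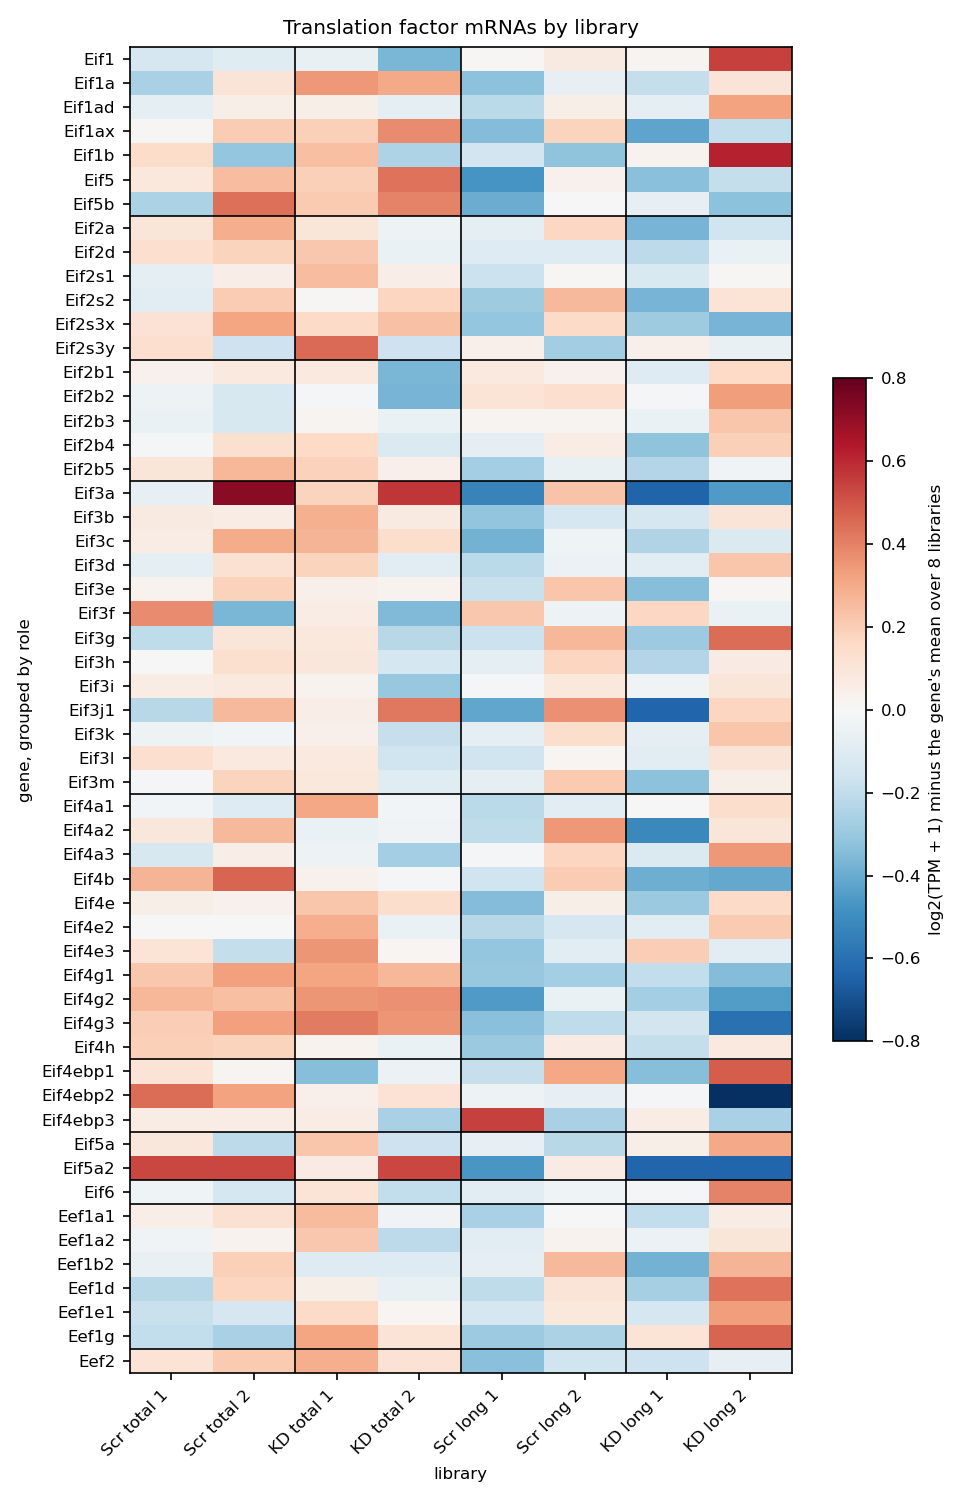
Level of each of the 55 translation factor mRNAs in each library, as log2(TPM + 1) minus the gene's mean over 8 libraries (colour), with genes grouped by role and 2 columns for each group (Scr, scrambled hairpin; KD, CNOT7 hairpin; long, long-tail fraction). The eIF4G scaffolds are lower in the long-tail columns than in the total columns, and Eef1g is higher in all 4 knockdown columns.

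Several factors exist as paralog pairs, and their mRNAs must be told apart by sequence before their levels can be compared. The coding sequences of Eef1a1 (chromosome 9, 78478449 to 78489151, minus strand, GRCm38) and Eef1a2 (chromosome 2, 181147653 to 181157014, minus strand), the form of eEF1A found in mature neurons and muscle, were 80.1% identical over 1386 aligned bases. Those of Eif1 (chromosome 11, 100319885 to 100322096, plus strand) and Eif1b (chromosome 9, 120492232 to 120495330, plus strand) were 81.1% identical over 339 bases. The first 90 coding bases of each are shown from GENCODE vM21 transcripts, 5′ to 3′, because they let a reader see how close the members of a pair are. Capitals mark positions that differ within the pair, 15 in the first pair and 13 in the second.
Eef1a1: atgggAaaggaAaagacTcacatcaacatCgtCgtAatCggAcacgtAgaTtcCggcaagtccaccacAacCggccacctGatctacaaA
Eef1a2: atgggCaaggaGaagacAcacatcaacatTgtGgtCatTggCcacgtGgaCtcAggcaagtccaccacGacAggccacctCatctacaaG
Eif1: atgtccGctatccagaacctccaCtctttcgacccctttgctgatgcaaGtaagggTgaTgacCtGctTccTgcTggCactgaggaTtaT
Eif1b: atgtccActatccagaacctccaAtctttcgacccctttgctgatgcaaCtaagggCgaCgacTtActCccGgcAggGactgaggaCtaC
No 50-base window of either transcript occurred in its partner (0.0% in both pairs, as for Eif4a1 and Eif4a2, which were 78.2% identical). Matches to other genes were another matter. Of the 50-base windows of each transcript, 59.2% for Eef1a1, 64.3% for Eef1g, 65.3% for Eif4a1 and 31.6% for Eif1 also occurred in a transcript of another GENCODE gene, for Eif4a1 mainly the pseudogene Eif4a-ps4 (64.9%). For Eif4a2 the share was 25.8%. Among other members it was 65.47% for Eif4ebp3, 39.78% for Eif3j1, 37.28% for Eif3m, 36.16% for Eif2s3x, 27.8% for Eif2s2 and 26.24% for Eif3h. Eif4a3, Eif3e and others had lower shares. The levels of all these genes, and the rankings and pair shares that use them, are uncertain to the extent that reads were split among such copies. For Eif4b, Eif4g1, Eif4g2, Eif4g3 and Eif5a2 the share was at most 1.31%.

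In total poly(A) RNA the measured differences of the translation factors after CNOT7 knockdown were small. The largest difference upward was in Eef1g, the gamma subunit of the eEF1 exchange complex, and the largest downward in Eif4b, the cofactor that stimulates the eIF4A helicase. No member passed an adjusted p under 0.05 in limma, among 0% of all 13681 genes, and the smallest adjusted p of a member was 0.704. Cnot7 itself did not pass at 0.373-fold in total and 0.360-fold in long-tail RNA (adjusted p = 0.153 and 0.173 in limma). A missing call therefore does not show an unchanged level. At an unadjusted p under 0.05 there was 1 member higher (2.05% of all genes) and 0 lower (4.30% of all genes). The libraries of the groups did not overlap for 7 members upward (8.68% of all genes) and 7 downward (20.1% of all genes). The median log2 difference was 0.02 over members and -0.07 over all genes, and 29 members had a difference above 0, against 36.1% of all genes. All 55 members lay within 0.5 of 0 on the log2 scale and 50 within 0.25. The 95% confidence limits of a member lay, in the median, 0.453 above and below its difference. Without knockdown total library 1 the median over members was -0.11. The authors' deposited tables of changed genes, 104 for total RNA and 97 for long tails, held 0 of the 55.

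Eef1g (chromosome 19, 8967041 to 8978479, plus strand, GRCm38) was at 262 and 251 TPM in scrambled and 375 and 325 TPM in knockdown total libraries. Its long-tail levels were 246 and 252 TPM in scrambled and 325 and 415 TPM in knockdown libraries. Every knockdown library was above every scrambled library. The 415 TPM came from knockdown long-tail library 2, the library that stood apart. Leaving out single libraries gave log2 differences of 0.341 to 0.546 in total RNA and 0.383 to 0.735 in long tails. With all libraries the log2 difference was 0.44 ± 0.152 (SE, 1.36-fold on the log2(TPM + 1) scale, unadjusted p = 0.0286 and adjusted p = 0.704 in limma) in total RNA and 0.56 ± 0.152 (1.47-fold, unadjusted p = 0.0116 and adjusted p = 0.492 in limma) in long tails. Other genes of the eEF1 group lay closer to 0 in total RNA: Eef1e1, grouped here by name and whose protein sits in the tRNA synthetase complex, at 0.24, Eef1d at 0.02 and the nucleotide exchanger Eef1b2 at -0.17.

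Eif4b (chromosome 15, 102073773 to 102097173, plus strand) was at 151 and 173 TPM in scrambled and 128 and 124 TPM in knockdown total libraries. Its long-tail levels were 112 and 144 TPM in scrambled and 95 and 94 TPM in knockdown libraries. The knockdown libraries were lower in each fraction, without overlap. The log2 difference was -0.36 ± 0.148 (0.781-fold, unadjusted p = 0.0554 and adjusted p = 0.824 in limma) in total RNA and -0.42 ± 0.148 (0.746-fold, unadjusted p = 0.0312 and adjusted p = 0.543 in limma) in long tails. Without scrambled long-tail library 2 the long-tail difference was -0.24.

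Eif4a1 (chromosome 11, 69666936 to 69672423, minus strand) joined these as the remaining gene whose groups did not overlap in the same direction in both fractions. It was at 366 and 346 TPM in scrambled and 462 and 367 TPM in knockdown total libraries, and at 321 and 351 against 371 and 411 TPM in long tails. The lowest knockdown total library exceeded the highest scrambled one by a single TPM. Its log2 difference was 0.21 ± 0.148 in total RNA and 0.22 ± 0.148 in long tails, with adjusted p-values of 0.929 and 0.669 in limma. These 3 of 55 members compare with 12.2% of all genes, and since the fractions may share cultures the 2 comparisons are not independent.

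**Figure D2:**
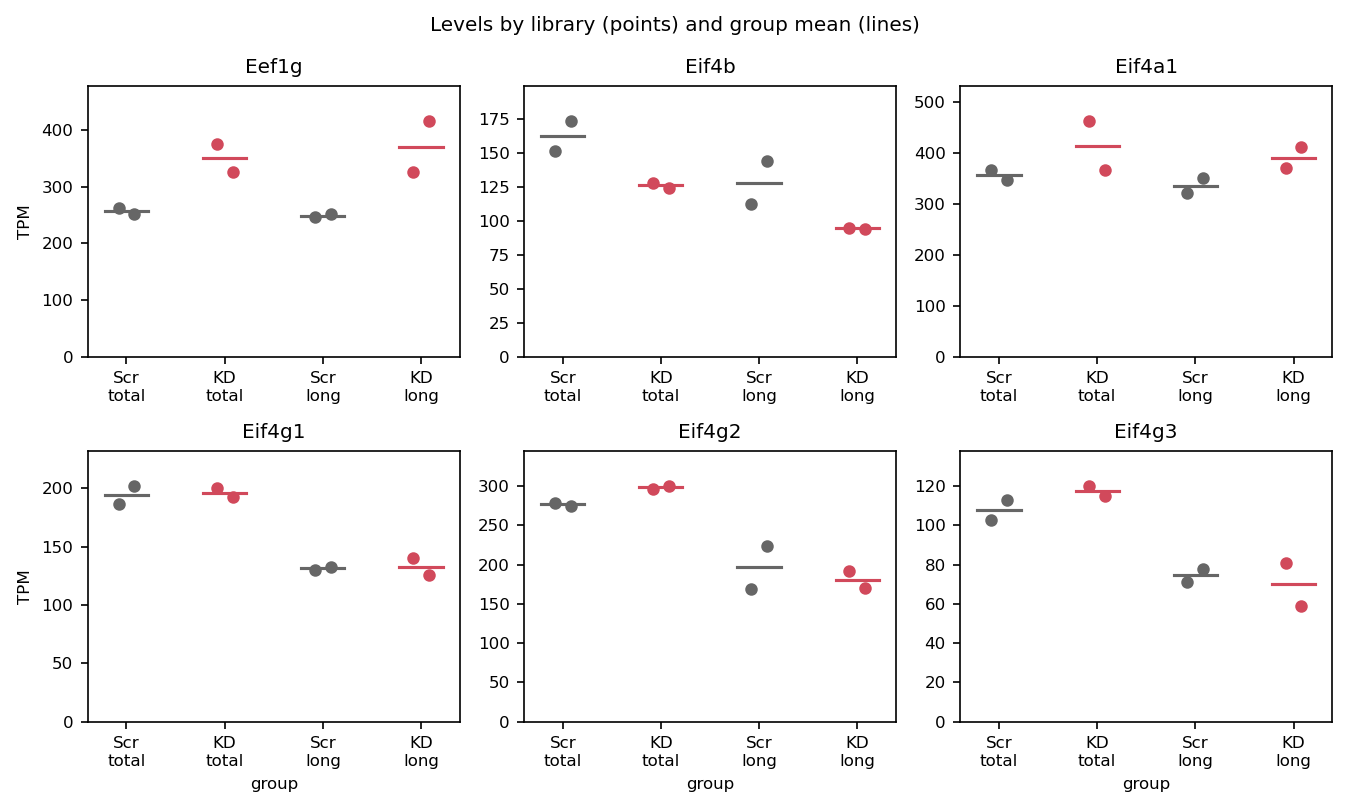
TPM of 6 translation factor mRNAs in each library (points) with the group mean (lines), for scrambled (Scr, grey) and CNOT7 hairpin (KD, red) neurons in total and long-tail (long) RNA. Eef1g and Eif4a1 lie higher and Eif4b lower in both knockdown groups than in the matching scrambled group, while the 3 eIF4G genes separate by fraction.

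The remaining roles showed small differences in total RNA, none past the threshold. Of the 7 scanning and joining genes 5 were above 0, with Eif1a, an eIF1A gene on chromosome 18, the highest at 0.40 ± 0.187 (20 and 26 TPM in scrambled, 31 and 30 TPM in knockdown libraries), while Eif1ax was at 0.18. eIF2 and the other tRNA carriers had a median of 0.01, between -0.17 (Eif2a) and 0.16 (Eif2s1, and also Eif2s3y). The 5 eIF2B subunits had a median of -0.07 and ranged from -0.20 (Eif2b1) to 0.08 (Eif2b3). The 13 eIF3 subunits had a median of -0.04, from -0.20 (Eif3i) to 0.22 (Eif3j1). All 3 eIF4E-binding inhibitors were below 0, with Eif4ebp2 at 73 and 67 TPM in scrambled and 55 and 58 TPM in knockdown libraries (-0.30 ± 0.257) and Eif4ebp1 at -0.26. The cap-binding Eif4e was at 78 and 77 against 88 and 83 TPM (0.14). The most abundant elongation factors differed little: Eef1a1 by 0.03 (95% limits -0.51 to 0.57), Eef1a2 by 0.00 (-0.42 to 0.43) and Eef2 by 0.05 (-0.30 to 0.39).

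In long-tailed RNA the same comparison gave a median of 0.02 over members and -0.10 over all genes, with 32 members above 0 (33.0% of all genes). With quantile normalization these medians were 0.009 and 0.003, so the gap between members and all genes depended on the scaling. No member was called (0% of all genes, smallest adjusted p = 0.492 in limma). At an unadjusted p under 0.05 there was 1 member higher, Eef1g (2.25% of all genes), and 1 lower, Eif4b (6.47% of all genes). Groups did not overlap for 6 members upward (8.91% of all genes) and 3 downward (17.1% of all genes). Eif1b, a close relative of the start-codon sensor Eif1, was at 255 and 227 TPM in scrambled and 289 and 435 TPM in knockdown long tails, a difference of 0.56 ± 0.283. The higher of these values came from knockdown long-tail library 2, the library that stood apart, and without it the difference was 0.26. Eif5a, whose protein carries the amino acid hypusine and helps ribosomes over difficult stretches, was at 694 and 622 against 750 and 895 TPM (0.32 ± 0.20, and 0.19 without the same library). Lower in long tails after knockdown were Eif2a, an alternative initiation factor (37 and 44 against 30 and 35 TPM, -0.31 ± 0.149, and -0.19 without scrambled long-tail library 2 or -0.20 without knockdown long-tail library 1), and Eif5a2, the rarer eIF5A gene (8 and 12 against 7 and 7 TPM, -0.44 ± 0.235, and -0.70 or -0.17 without scrambled long-tail library 1 or 2).

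**Figure D3:**
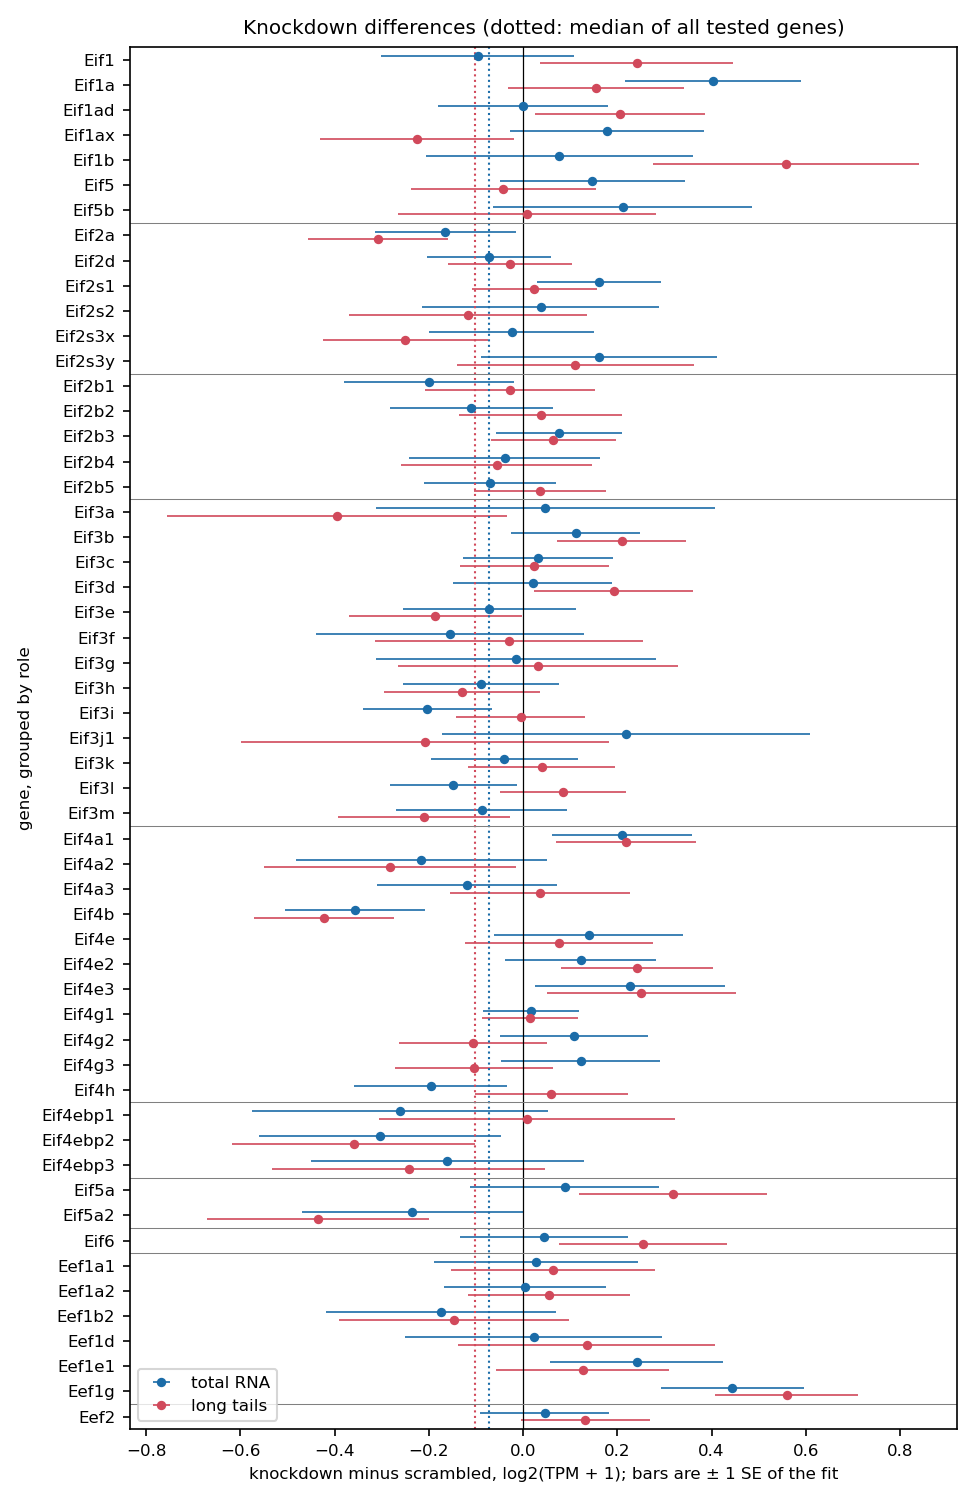
Knockdown minus scrambled difference in log2(TPM + 1), with ± 1 SE from the fit, for all 55 translation factors by role, in total RNA (blue) and long tails (red). Dotted lines mark the medians over all 13681 tested genes (-0.07 and -0.10). Most members lie within 0.25 of 0, Eef1g is farthest to the right in total RNA and Eif4b farthest to the left there.

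Paralog choice was followed as each gene's share of its pair's summed TPM, which does not depend on how a library was scaled. Eif4a2, the helicase paralog that is abundant in brain and is known to bind the CCR4-NOT complex, made up 42.2% and 46.5% of the eIF4A1 and eIF4A2 mRNA in scrambled total libraries and 34.4% and 40.1% in knockdown total libraries. In long tails its share was 40.5% and 47.7% in scrambled and 32.1% and 39.6% in knockdown libraries. The knockdown libraries were lower without overlap in each fraction, a difference in percentage points of -7.10 in total and -8.26 in long tails. Leaving out single libraries gave -9.98 to -4.22 in total (smallest without knockdown library 1) and -12.02 to -4.51 in long tails (smallest without knockdown library 1). Within each group library 1 had the lower share, and scrambled library 1 lay close to knockdown library 2 in both fractions. With 2 libraries against 2 an exact permutation test cannot give a p under 0.333, and none was run. The level of Eif4a2 itself was 267 and 301 TPM in scrambled and 242 and 246 TPM in knockdown total RNA (log2 difference -0.22 ± 0.267, adjusted p = 1 in limma).

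The other families were followed in the same way. Eef1a2 made up 12.9% and 12.8% of eEF1A mRNA in scrambled total, 13.2% and 12.1% in knockdown total, 14.9% and 13.7% in scrambled long-tail and 14.7% and 13.8% in knockdown long-tail libraries. Knockdown and scrambled ranges overlapped in each fraction. Eif1b made up 31.3% to 42.4% of the Eif1 pair over all libraries, with overlap in total RNA and without it in long tails (34.8% and 31.3% against 37.5% and 38.6%). Eif5a supplied 97.4% to 99.2% of its pair and Eif4g1 62.5% to 68.1% of the pair with Eif4g3. Among the cap-binding proteins Eif4e supplied 46.9% to 55.0%, the translational repressor Eif4e2 35.8% to 40.8% and Eif4e3 8.02% to 12.3%. Eif4ebp1 held 36.6% to 50.0% of the inhibitor sum in 7 libraries and 64.9% in knockdown long-tail library 2. The Y-linked Eif2s3y made up 6.52% to 11.2% of the eIF2 gamma mRNA, and was present in all 8 libraries at 11 to 19 TPM beside Xist at 16 to 98 TPM.

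**Figure D4:**
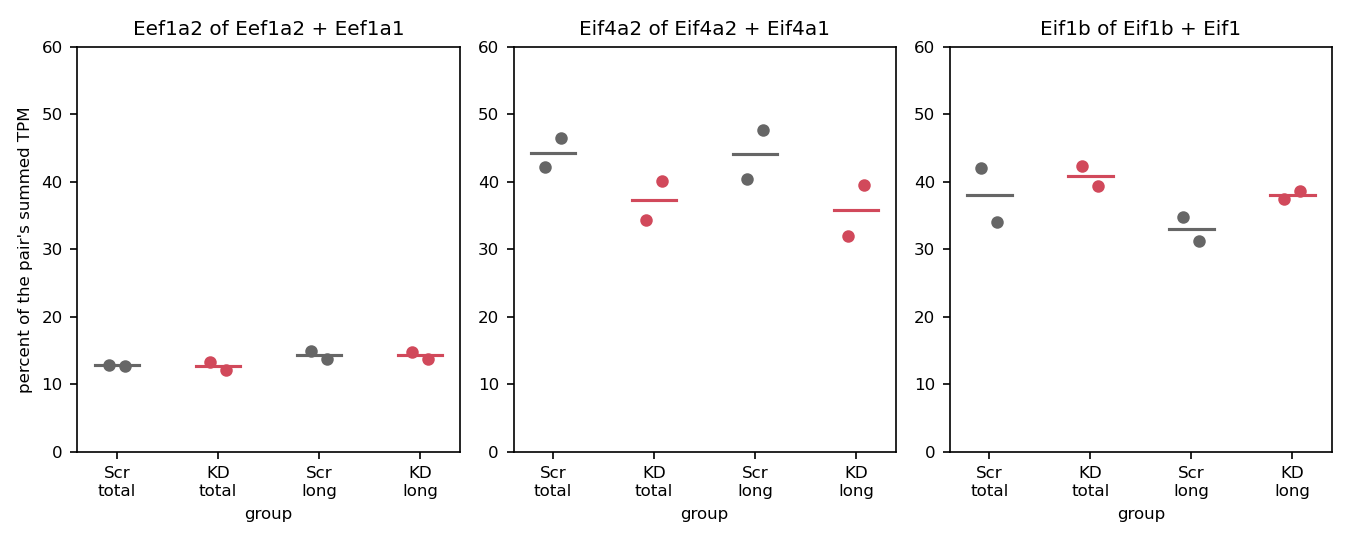
Share of the pair's summed TPM taken by Eef1a2, Eif4a2 and Eif1b in each library (points) with group means (lines), for scrambled (Scr, grey) and knockdown (KD, red) neurons in total and long-tail (long) RNA. The Eif4a2 share lies lower in both knockdown groups, the Eef1a2 share stays between 12.1% and 14.9%, and the Eif1b share overlaps between groups in total RNA only.

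Between the fractions, the eIF4G scaffolds, Eef2 and Eif5a2 were at lower TPM in long-tail than in total libraries of the same neurons. Eif1 was at higher TPM. By unadjusted p and by non-overlap of libraries, the factors as a list were lower no more often than other genes. By sign this did not hold in scrambled neurons, where 11 of 55 lay above 0 against 23.7% of all genes. Since TPM is a share within a library, such a difference is one of shares and not of tail length. Over all genes the median difference was -0.22 in scrambled and -0.22 in knockdown neurons, and quantile normalization moved these medians to -0.02 and 0.03, so members are read against them. The members had medians of -0.10 (0.04 with quantile normalization, -0.02 without Rn45s and -0.25 without scrambled long-tail library 2) and -0.13 (0.002 with quantile normalization, 0.04 without knockdown total library 1 and 0.02 without knockdown long-tail library 1), with 39 and 37 of 55 above the median of all genes. Differences above 0 numbered 11 in scrambled (23.7% of all genes) and 21 in knockdown neurons (26.8% of all genes). No member was called in either neuron group (0% of all genes in each). In scrambled neurons 5 members were lower at an unadjusted p under 0.05 (12.9% of all genes) and 0 higher (0.263% of all genes). In knockdown neurons 9 were lower (25.1% of all genes) and 0 higher (0.921% of all genes). Libraries did not overlap for 16 members lower (39.6% of all genes) and 3 higher (4.69% of all genes) in scrambled, and for 18 lower (40.0% of all genes) and 1 higher (4.04% of all genes) in knockdown neurons.

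All 3 eIF4G genes shared the pattern. Eif4g1 (chromosome 16, 20668313 to 20692884, plus strand), the main scaffold, was at 187 and 202 TPM in scrambled total against 130 and 133 TPM in long tails. In knockdown neurons it was at 200 and 193 against 140 and 126 TPM. The difference was -0.56 ± 0.102 in each neuron group (0.678-fold, unadjusted p = 0.00189 and 0.00187, adjusted p = 0.377 and 0.14 in limma). Eif4g2 (chromosome 7, 111067750 to 111083030, minus strand), which lacks the eIF4E binding site, was at 279 and 275 against 169 and 224 TPM in scrambled and 297 and 300 against 192 and 170 TPM in knockdown neurons (-0.51 and -0.72 ± 0.157). Eif4g3 (chromosome 4, 137993022 to 138208508, plus strand) was at 103 and 113 against 71 and 78 TPM and at 120 and 115 against 81 and 59 TPM (-0.53 and -0.76 ± 0.168). No long-tail library reached a total library of the same neurons for any of the 3. Without scrambled long-tail library 1 the scrambled difference of Eif4g2 was -0.31. With quantile normalization the 3 stayed below 0, between -0.38 and -0.44 in scrambled and between -0.50 and -0.70 in knockdown neurons.

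Eef2 (chromosome 10, 81176631 to 81182498, plus strand) was at 926 and 991 TPM in scrambled total and 680 and 769 TPM in scrambled long tails, and at 1051 and 931 against 764 and 822 TPM in knockdown neurons. The ranges did not overlap, with differences of -0.41 and -0.32 ± 0.137. Eif5a2 was at 17 and 17 against 8 and 12 TPM in scrambled and 12 and 17 against 7 and 7 TPM in knockdown neurons (-0.73 and -0.94 ± 0.235, the lowest of all members). Its abundant paralog Eif5a differed by -0.08 and 0.15. In the other direction, Eif1 was at 432 and 443 TPM in scrambled total and 477 and 499 TPM in scrambled long tails (0.16 ± 0.205). In knockdown neurons it was at 455 and 368 against 481 and 692 TPM (0.50 ± 0.205), and the 692 came from the library that stood apart, without which the difference was 0.23. It was 0.76 without knockdown long-tail library 1. No call was made without any 1 library except knockdown long-tail library 1, where Eif1, Eif4ebp2, Eif4g1 and Eif4g3 passed the threshold in knockdown neurons, as did 2125 genes in all. In all, 11 members had non-overlapping fractions on the same side in both neuron groups, 10 lower and 1 higher, against 30.7% of all genes.

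Transcript length moved with these differences, a comparison made after the values had been seen. Across the 55 members the scrambled long-tail difference and log2 transcript length correlated at Pearson r = -0.721 (Spearman rho = -0.704), and the knockdown difference at r = -0.773 (rho = -0.754). Across 12618 tested genes with a coding GENCODE transcript the values were r = -0.691 and -0.704. These are correlations across genes that share the same libraries, and genes are not independent replicates. The 18 shortest members, of 744 to 1794 bases, had median differences of -0.02 in scrambled and 0.12 in knockdown neurons. The 19 longest, of 2869 to 7995 bases, had medians of -0.35 and -0.49, and the 6171 genes in the same length range had medians of -0.35 and -0.42. The eIF4G transcripts measured 5638, 7995 and 5289 bases, Eif5a2 5027 and Eef2 3089, while that of Eif1 measured 1322 and that of Eif5a 1437. What part length has in the differences between fractions was not tested. The knockdown difference in total RNA was weakly related to length among members (r = 0.209) and in long tails at r = -0.32. Across the 12618 genes these values were r = -0.031 and -0.355.

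**Figure D5:**
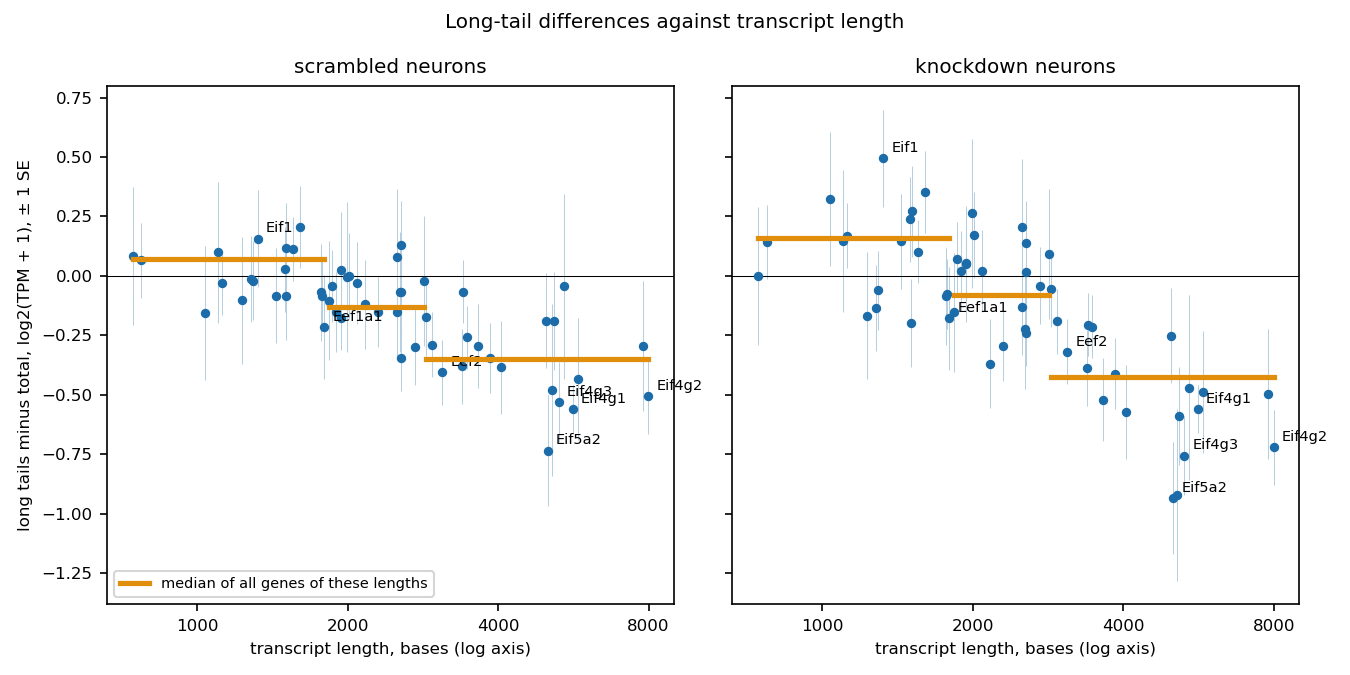
Long tails minus total difference in log2(TPM + 1), with ± 1 SE, against transcript length in bases (log axis) for the 55 translation factors in scrambled (left) and knockdown (right) neurons. Orange lines are the medians of all tested genes over the length ranges of the shortest, middle and longest members. Members scatter around the falling orange steps, and the eIF4G genes and Eif5a2 lie below the lowest step in each panel.

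The interaction asks whether knockdown differed between the fractions, as the long-tail difference minus the total difference. No member was called (0% of all genes, smallest adjusted p = 1 in limma), and 0 had an unadjusted p under 0.05 in either direction (0.395% of all genes higher, 0.482% lower). The median was 0.01 over members and -0.02 over all genes, and 28 members were above 0 (43.3% of all genes). With quantile normalization these medians were -0.017 and 0.013. Eif1b was highest (0.48 ± 0.401, 95% limits -0.52 to 1.48) and Eif3a lowest (-0.44 ± 0.509, -1.71 to 0.82). For Eef1g the interaction was 0.12 and for Eif4b -0.07. The 95% limits of a member lay, in the median, 0.64 from its difference, so differences below that size were not detectable in most members. Since these limits are not adjusted for the number of genes tested, larger differences could also go uncalled.

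Other genes of the translation pathway were taken from fixed lists, and none of their members was called in either knockdown comparison. Of all genes 36.1% were above 0 in total RNA and 33.0% in long tails. Among 14 release and recycling factors 10 were above 0 in total RNA, with a median of 0.04, 0 at an unadjusted p under 0.05, and in long tails a median of 0.04. The release factor Etf1 was at 65 and 68 TPM in scrambled and 77 and 75 TPM in knockdown total RNA. Among 36 regulators of the factors 15 were above 0 in total RNA and 8 in long tails, with medians of -0.09 and -0.15. At an unadjusted p under 0.05 there were 2 higher and 0 lower in total RNA and 3 higher and 2 lower in long tails (of all genes, 2.05% and 4.30% in total RNA and 2.25% and 6.47% in long tails). Pdcd4, which binds eIF4A and blocks it, had the smallest p of these in total RNA, at 66 and 87 TPM in scrambled and 123 and 135 TPM in knockdown libraries (0.76 ± 0.255, unadjusted p = 0.027, adjusted p = 0.691 in limma). In long tails Pdcd4 was at 69 and 91 against 110 and 164 TPM, and knockdown libraries were above scrambled ones in each fraction. Impact, a neuronal inhibitor of the eIF2 kinase GCN2, was at 78 and 81 against 111 and 112 TPM in total RNA (0.48 ± 0.165, adjusted p = 0.702 in limma) and, with overlap, at 60 and 81 against 88 and 76 TPM in long tails.

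Targets of the stress response that follows eIF2 phosphorylation had 7 of 16 members above 0 in total RNA (median -0.04) and 10 in long tails (median 0.05), with 0 at an unadjusted p under 0.05 in each. Their central factor Atf4 was at 189 and 149 TPM in scrambled and 210 and 171 TPM in knockdown total libraries, which overlap. In long tails Atf4 was at 195 and 191 against 230 and 251 TPM, without overlap (0.315 ± 0.163). Asns was higher after knockdown without overlap in each fraction. It was at 109 and 95 against 146 and 112 TPM in total RNA and 90 and 89 against 109 and 128 TPM in long tails. Atf5 was lower in total RNA (119 and 86 against 82 and 75 TPM) and overlapped in long tails. Of 22 tRNA synthetases and their scaffold proteins 15 were above 0 and 7 below in total RNA (median 0.11). Rars, the arginine enzyme, was at 39 and 40 against 65 and 52 TPM (0.55 ± 0.206, adjusted p = 0.766 in limma). Iars went the other way, at 42 and 43 against 33 and 33 TPM (-0.355 ± 0.204, adjusted p = 0.924 in limma). The 10 mitochondrial translation factors had a median of -0.01 in total RNA and -0.04 in long tails. The 82 cytosolic ribosomal protein genes had medians of 0.03 in total RNA and 0.11 in long tails, beside 0.02 and 0.02 for the factors. Between fractions the ribosomal proteins had medians of 0.14 in scrambled and 0.20 in knockdown neurons, beside -0.10 and -0.13 for the factors, whose medians were 0.04 and 0.002 with quantile normalization. Medians with quantile normalization were not taken for the ribosomal proteins, and the lists were not matched for transcript length. The difference between the lists was not tested.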

How the data were processed

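Tools named in the submitters' processing notes are TopHat2, RSEM, CASAVA, DESeq2 and DESeq, on mm10. Neither versions nor roles are given in the sources used here. In its deposited form the gene table has, by its name and values, TPM that the authors rounded to whole numbers, treated here as a score. Read depth is unknown, so counting error could not be computed. Deposited tables of the authors' own comparisons give, per the file headers, log2 fold changes and p-values, and served only to look for members.

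Genes averaging 1 TPM or more, 13681 in number, were analysed as log2(TPM + 1). A single limma fit (version 3.58.1, R 4.3.3; eBayes with trend) over the 8 libraries estimated 4 group means and gave 5 two-sided contrasts, with Benjamini-Hochberg adjustment over all genes at 0.05. The fit was tested only on simulated differences of 2 log2 units, which does not show whether differences of the members' size can be detected. Same-numbered libraries are not said to be paired. Transcripts and coordinates are from GENCODE vM21 (GRCm38, the mm10 assembly; all 55 matched by symbol), taking per gene the coding transcript with the longest coding sequence, which for Eif4a2 and Eif4g3 has almost no UTR. Named genes follow a rule: the 5 highest members, the 5 per direction with the smallest p in each contrast where fewer than 5 were called, the paralog families, 2 members per role and knockdown contrast, and up to 3 genes per other list. Members and lists were chosen with earlier results of these data known. Lists of sex-linked genes and cell type markers served as checks. Other settings were scaling, pseudocount, low-value filter, blocks, weights and left-out libraries.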

Additional observations from a re-analysis of the deposited data

How the results depend on the processing

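Counts of called members were 0 in all 5 comparisons under every other setting, except long tails minus total in knockdown neurons without knockdown long-tail library 1, where 4 were called (Eif1 at 0.76, Eif4g1 at -0.64, Eif4g3 at -0.98, and Eif4ebp2) among 2125 genes in all. That fit rests on knockdown long-tail library 2 alone. Leaving out single libraries moved the median over members from -0.108 to 0.068 in total RNA (lowest without knockdown total library 1), from -0.252 to -0.025 for long tails minus total in scrambled and from -0.262 to 0.041 in knockdown neurons. With quantile normalization the scrambled fraction median was 0.037. The knockdown difference in share ranged, leaving out single libraries, from -0.74 to 0.42 points for Eef1a2 in total RNA, from -9.98 to -4.22 for Eif4a2 in total RNA and from -12.02 to -4.51 for Eif4a2 in long tails, and for Eif1b from -1.2 to 6.81 in total RNA and 3.23 to 6.8 in long tails. Of the values of single members, 3 changed sign: Eif2b1 in total RNA (-0.422 to 0.022, highest without knockdown total library 2), Eif4ebp2 in long tails (-0.76 to 0.041, highest without knockdown long-tail library 2) and the Eif2s3x interaction (-0.456 to 0.004, highest without scrambled long-tail library 2). In each case the cause was not tested beyond the use of fewer libraries. Deviations of same-numbered libraries correlated between -0.108 and 0.605 over pairs of groups, and the labels state no pairing. With the replicate number as a block 0 members were called in each comparison, and with culture as a block 0 in the comparisons between fractions. The count was also 0 for the fractions in knockdown neurons with the knockdown long-tail numbers crossed, a setting chosen after seeing the data. TPM rounded to whole numbers limits precision in the lowest members, Eif4ebp3 above all.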
